A study of Danio rerio with 18 samples.

Results

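The 10 genes described here are the zebrafish members of the immediate-early AP-1 and Egr group: the Fos family genes FOS (fosab, ENSDARG00000031683), FOSB (ENSDARG00000055751), FOSL1 (ENSDARG00000015355) and FOSL2 (ENSDARG00000040623), the Jun family genes JUN (ENSDARG00000043531) and the JUNB pair (ENSDARG00000074378 and ENSDARG00000104773, listed under 1 symbol), and egr1 (ENSDARG00000037421), ATF3 (ENSDARG00000007823) and ier2b (ENSDARG00000086881). They were chosen by symbol from the 25535 genes of the deposited table, all 10 were found there, and all 10 passed the filter on low values that left 20738 genes for testing. FOSB passed that filter only through the uninjected WIK libraries at 24 hours post fertilisation (hpf) and the her3 knockout libraries at 72 hpf, the only 6 libraries in which it reached 1 CPM (a gene's reads scaled by an effective library size), so that it had to differ there to be tested at all. Its values are given, but the main counts of called genes are also given over the 9 others, and its calls support nothing. Counts under other settings of the fit take in all 10 genes, FOSB included. Poly(A) RNA of whole zebrafish embryos was sequenced in 18 libraries, each from a pool of 20 to 25 embryos, 3 per group. At 24 hpf the groups were a her3 knockout line (her3 -/-, named her3_38aa in the sample titles), wild-type WIK embryos injected at the 1-4 cell stage with a her3 morpholino (her3-MO), WIK embryos injected at that stage with a mismatch morpholino (mm-MO), and uninjected wild-type WIK embryos. At 72 hpf the groups were the same knockout line and uninjected WIK embryos. her3 encodes a Hairy/E(spl)-related repressor, and a morpholino is an antisense oligomer that blocks the use of a transcript. The labels name 1 knockout allele, and all embryos were dechorionated at 24 hpf per the labels' protocols.

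Immediate-early genes are transcribed within minutes of a stimulus such as growth factor, stress, injury or neuronal activity, without new protein synthesis, and their short-lived transcripts soon fall back. Fos and Jun family proteins pair through leucine zippers to form the AP-1 transcription factor, in which Jun proteins can pair with each other and Fos proteins cannot. EGR1 is a zinc-finger factor induced through serum response factor and MAP kinase signalling, and in zebrafish embryos fos, junb and atf3 family transcripts are among those induced at wounds and in regenerating fins. These sentences are background and not results of these libraries.

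Depth ranged from 14214136 reads, in WIK 24 hpf replicate 1, to 23135995 reads per library. Replicate 1 of WIK 24 hpf lay 2-fold or more below both of its fellow replicates in 6.91% of the tested genes, against 0.0627 to 0.632% for the other 17 libraries in their own groups. The her3 transcript (listed as HES3) stood above WIK in the knockout libraries, at 22.2, 22.1 and 22.1 CPM at 24 hpf against 11.0, 9.24 and 9.82 CPM. In the her3-MO libraries it stood at 41.8, 33.7 and 32.3 CPM, against 7.87, 7.66 and 8.09 CPM in the mm-MO libraries. The transcript therefore gives no check of the labels in the direction of a loss, and every direction below follows the labels. Where the abundance of a transcript in a whole embryo differs, fewer cells of a type and less RNA per cell cannot be told apart.

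Uninjected WIK embryos at 24 hpf did not form 1 level for these genes. Replicates 1 and 3 carried high Fos, Jun family and Atf3 transcripts, and replicate 2 carried a fraction of them. FOS, the founding Fos gene, stood at 58.0, 12.9 and 45.6 CPM in WIK replicates 1, 2 and 3. FOSL1, a Fos protein without the strong activation domain of FOS, stood at 26.5, 6.18 and 31.3 CPM. JUNB (ENSDARG00000074378), of a Jun subfamily that often acts as a weaker activator than JUN, stood at 40.3, 11.1 and 45.9 CPM. In all of these replicate 2 was the low library and replicates 1 and 3 lay close together. Replicate 1 held 4.50 times as much FOS, 4.29 times as much FOSL1, 3.62 times as much JUNB (ENSDARG00000074378) and 2.53 times as much ATF3 as replicate 2. Replicate 2 was under the group mean for 10 of the 10 genes, by 0.80 on average on the log2(CPM + 0.5) scale, and was the lowest of the 3 WIK libraries for 9 of them. It was the lowest library for 20.5% of all tested genes. It lay 2-fold or more below both of its fellow replicates for 6 of the 10 genes, and for 50 of the 20738 tested genes (0.241%). JUN was the exception in size, at 95.1, 90.7 and 107 CPM, and FOSB was lowest in replicate 1 (1.104 CPM) and not in replicate 2 (1.32 CPM), with 3.07 CPM in replicate 3.

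No other group was split in this way. The median standard deviation of the 10 genes between replicates was 0.67 on the log2 scale in WIK at 24 hpf, where the median over all tested genes was 0.23. In the other 5 groups the median for the 10 genes was between 0.08 and 0.15, and over all tested genes between 0.11 and 0.18. FOSL1, with a within-group standard deviation of 1.24, FOS with 1.14, JUNB (ENSDARG00000074378) with 1.103 and ATF3 with 0.80 lay above the 95th percentile of all tested genes in WIK at 24 hpf. The neutrophil marker list moved with the split, at summed levels of 41.3, 17.1 and 48.5 CPM in WIK replicates 1, 2 and 3. Most of that swing was MMP9, a matrix metalloproteinase also made outside neutrophils, at 20.6, 3.38 and 32.4 CPM. The neutrophil granule gene npsn stood at 18.7, 11.9 and 12.7 CPM and the lysozyme gene lyz at 1.78, 0.792 and 2.10 CPM. CSF3R, the granulocyte colony-stimulating factor receptor and the last gene of that list, stood at 0.255, 1.00 and 1.18 CPM and was lowest in replicate 1. The macrophage list had its low value in replicate 2, at 104, 64.1 and 72.8 CPM, as did the skin list (periderm and epidermis), at 15740, 11880 and 12090 CPM. In both lists replicate 3 lay near replicate 2 and replicate 1 stood high, unlike the split of the 10 genes. The leukocyte list, at 42.0, 48.2 and 57.4 CPM, and the notochord list, at 486, 504 and 496 CPM, were lowest in replicate 1. The muscle, neural, erythroid and endothelium lists were lowest in replicate 3. The part of these cells in the split was not tested.

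**Figure D1:**
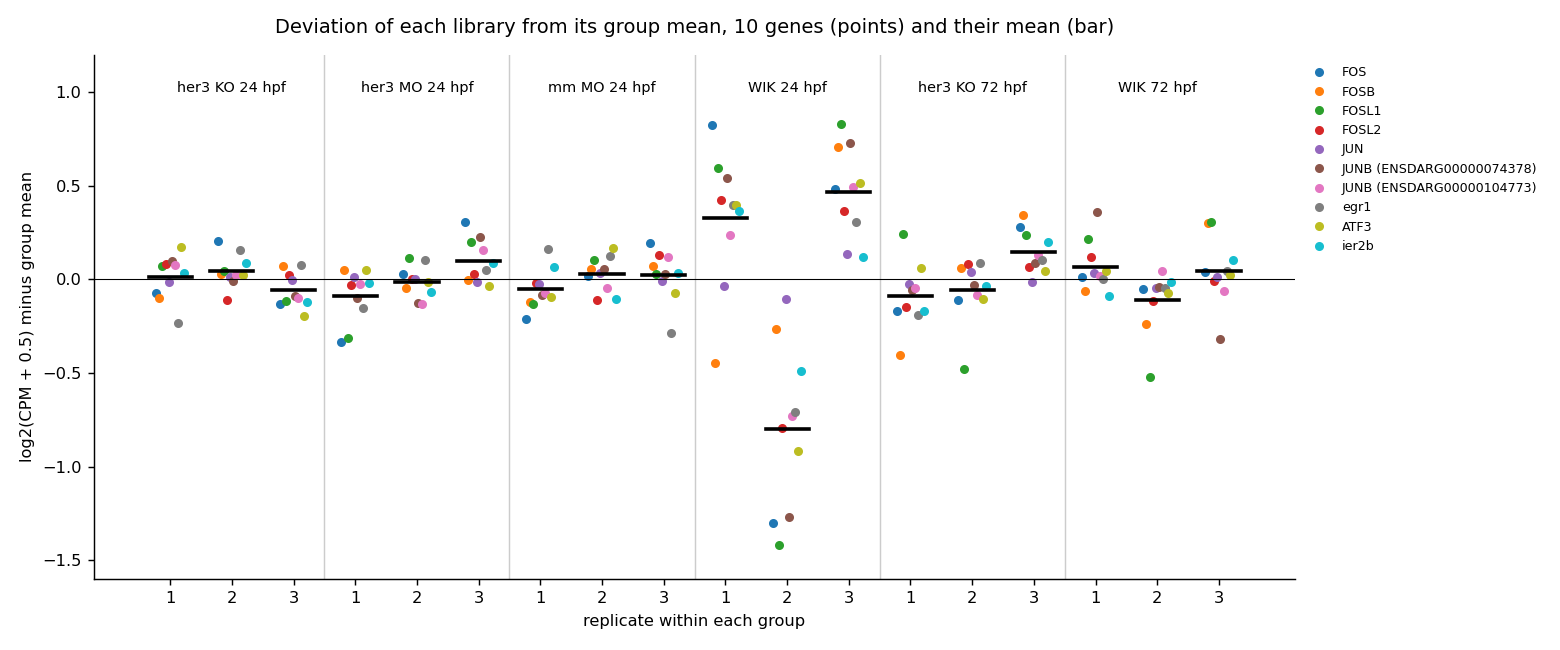
Deviation of each of the 18 libraries from its group mean, log2(CPM + 0.5), for the 10 genes (coloured points) with their mean (black bar). WIK 24 hpf replicate 2 lies at a mean of -0.80 and replicates 1 and 3 at 0.33 and 0.47, and the other 15 library means lie between -0.11 and 0.15.

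The genes most like this group in how they varied between replicates were found by the root mean square difference, over the 18 libraries, between a gene's log2 deviations from its group means and the mean deviation of the 10 genes. Over 14878 named genes the median difference was 0.28, and a gene with no deviation at all would have 0.24. The 8 nearest were nfkbiaa at 0.12, ier2a at 0.12, ets2 at 0.13, NR4A3 at 0.13, SLC16A9 at 0.14, DHRS13 at 0.14, NRGN at 0.14 and irgq1 at 0.14. nfkbiaa encodes an inhibitor of NF-kappa-B, ier2a is the paralogue of ier2b, ets2 encodes an ETS factor and NR4A3 an immediate-early nuclear receptor. In WIK replicates 1, 2 and 3 at 24 hpf nfkbiaa stood at 25.6, 11.1 and 27.4 CPM, and ier2a at 73.2, 43.2 and 75.4 CPM. NR4A3 stood at 7.39, 2.85 and 5.78 CPM in the same order. Replicate 2 was the low library for each of these 3 genes. NRGN was at 0 to 0.424 CPM in WIK at 24 hpf, too few reads to read a pattern from. The likeness is a description over libraries that share depth and pools, and carries no test.

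At 72 hpf several immediate-early genes were higher in knockout embryos than in WIK embryos. FOS averaged 42.8 ± 7.66 CPM in knockout and 6.96 ± 0.242 CPM in WIK embryos (SD, n = 3 each), a ratio of 6.15. egr1, ier2b and JUNB (ENSDARG00000104773) also passed the test. Of the 9 genes other than FOSB, 4 rose and 0 fell (5 of 10 with FOSB) at an adjusted p under 0.05 (limma across all 20738 genes, Benjamini-Hochberg), where 10.8% of all tested genes were called, 5.11% higher and 5.71% lower. The median log2 difference was 0.72 over the 9 genes and -0.01 over all tested genes. For 7 of the 9 genes the 3 knockout libraries all lay above the 3 WIK libraries, a pattern that 17.1% of all tested genes showed.

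In the Fos family, FOS had 37.6, 39.2 and 51.6 CPM in knockout embryos, against 7.03, 6.70 and 7.17 CPM in WIK embryos at 72 hpf. The groups lay far apart, and the log2 difference was 2.52 ± 0.37 (SE, adjusted p = 2.0e-04, limma). FOSB, a Fos protein best known from activated neurons in mammals, had 1.07, 1.67 and 2.15 CPM in knockout embryos, against 0.244, 0.159 and 0.457 CPM in WIK embryos. All 3 knockout values were above the WIK values, at a log2 difference of 1.42 ± 0.25 (adjusted p = 0.0010, limma, a call that the filter favoured), which the added 0.5 CPM makes smaller than the ratio of the means, 5.69. Its WIK values rest on as few as 3 reads in a library. FOSL1 had 3.17, 1.72 and 3.16 CPM in knockout embryos, against 2.63, 1.38 and 2.85 CPM in WIK embryos. These groups overlapped, and FOSL1 did not pass the test (log2 difference 0.20 ± 0.42, adjusted p = 0.85, limma). FOSL2, a Fos protein of later and longer induction, had 16.5, 19.5 and 19.2 CPM in knockout embryos, against 15.5, 13.1 and 14.1 CPM in WIK embryos. The groups did not overlap, and the log2 difference of 0.36 ± 0.22 did not pass (adjusted p = 0.38, limma).

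Of the Jun genes, 1 of the JUNB pair passed the test, and the other JUNB gene and JUN did not. JUNB (ENSDARG00000104773) had 64.8, 63.1 and 73.4 CPM in knockout embryos, against 38.1, 38.8 and 36.1 CPM in WIK embryos at 72 hpf. All knockout libraries were higher, at a log2 difference of 0.82 ± 0.21 (adjusted p = 0.015, limma). That call was lost without knockout replicate 3 (adjusted p = 0.066) and without WIK 72 hpf replicate 3 (adjusted p = 0.058), with a range of 3.4e-05 to 0.094 over 27 alternative settings. JUNB (ENSDARG00000074378) had 23.3, 23.7 and 25.8 CPM in knockout embryos, against 18.8, 14.1 and 11.6 CPM in WIK embryos. Its groups did not overlap either, but the log2 difference of 0.72 ± 0.35 did not pass (adjusted p = 0.23, limma). How reads that match both JUNB genes were counted is not stated, so the split between them is uncertain. JUN, which can form AP-1 with itself or with a Fos protein, had 114, 119 and 115 CPM in knockout embryos, against 120, 113 and 118 CPM in WIK embryos. These groups overlapped, and the log2 difference was -0.01 ± 0.06 (adjusted p = 0.94, limma).

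egr1 had 22.8, 27.7 and 28.0 CPM in knockout embryos, against 13.2, 12.7 and 13.6 CPM in WIK embryos at 72 hpf. Every knockout library was above every WIK library, at a log2 difference of 0.96 ± 0.23 (adjusted p = 0.011, limma). ier2b, an immediate-early gene whose product is nuclear, had 29.1, 32.0 and 37.8 CPM in knockout embryos, against 15.4, 16.2 and 17.6 CPM in WIK embryos. The groups did not overlap, and the ratio of the means was 2.01, with a log2 difference of 0.98 ± 0.16 (adjusted p = 6.0e-04, limma). ATF3, a stress-induced bZIP factor that can pair with Jun proteins, had 24.4, 21.8 and 24.1 CPM in knockout embryos, against 18.9, 17.4 and 18.6 CPM in WIK embryos. The groups did not overlap, and the log2 difference of 0.35 ± 0.25 did not pass (adjusted p = 0.47, limma).

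All 6 groups share 1 estimate of the spread in this fit. Without WIK 24 hpf replicate 2, which takes no part in the 72 hpf comparison itself, the SE of FOS was 0.17 in place of 0.37, and 8 of the 10 genes (FOSB among them) were called higher where 10.6% of all tested genes were called, with FOSL2, JUNB (ENSDARG00000074378) and ATF3 added at adjusted p of 0.035, 0.0042 and 0.044. Over all their alternatives the adjusted p of these genes ranged from 0.035 to 0.65, 0.0042 to 0.51 and 0.017 to 0.69. Fitting the 72 hpf groups alone also gave 8 calls, again with FOSB among them, and the share of all tested genes called was then 17.8%. PER2, a clock repressor, had 55.0, 58.2 and 64.6 CPM in knockout embryos, against 8.10, 6.32 and 7.37 CPM in WIK embryos in the same libraries. lonrf1 had 69.4, 67.7 and 72.6 CPM in knockout embryos, against 11.5, 10.4 and 11.1 CPM in WIK embryos. At 24 hpf PER2 was lower in knockout than in WIK embryos (log2 difference -0.47 ± 0.13, adjusted p = 0.029, limma). lonrf1 did not pass there (-0.05 ± 0.08, adjusted p = 0.73). The neutrophil list stood at 40.0, 39.9 and 31.0 CPM in knockout embryos, against 32.6, 46.6 and 35.3 CPM in WIK embryos, so the groups overlapped. The summed levels of the skin markers overlapped as well, and 1 of their 11 genes was called, lower in the knockout. The erythroid list did not overlap, at 256, 229 and 181 CPM in knockout embryos against 152, 170 and 156 CPM in WIK embryos, with 2 of 6 genes called higher. The notochord list lay lower, at 207, 222 and 184 CPM in knockout embryos against 263, 325 and 265 CPM in WIK embryos, with 1 of 5 genes called lower. Of the endothelium genes 1 of 3 was called higher, of 10 tested macrophage genes 1 was higher and 2 lower, and of the neutrophil, leukocyte, muscle and neural genes 0 were called (limma). The part of PER2, of lonrf1 and of these cells in the result was not tested.

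**Figure D2:**
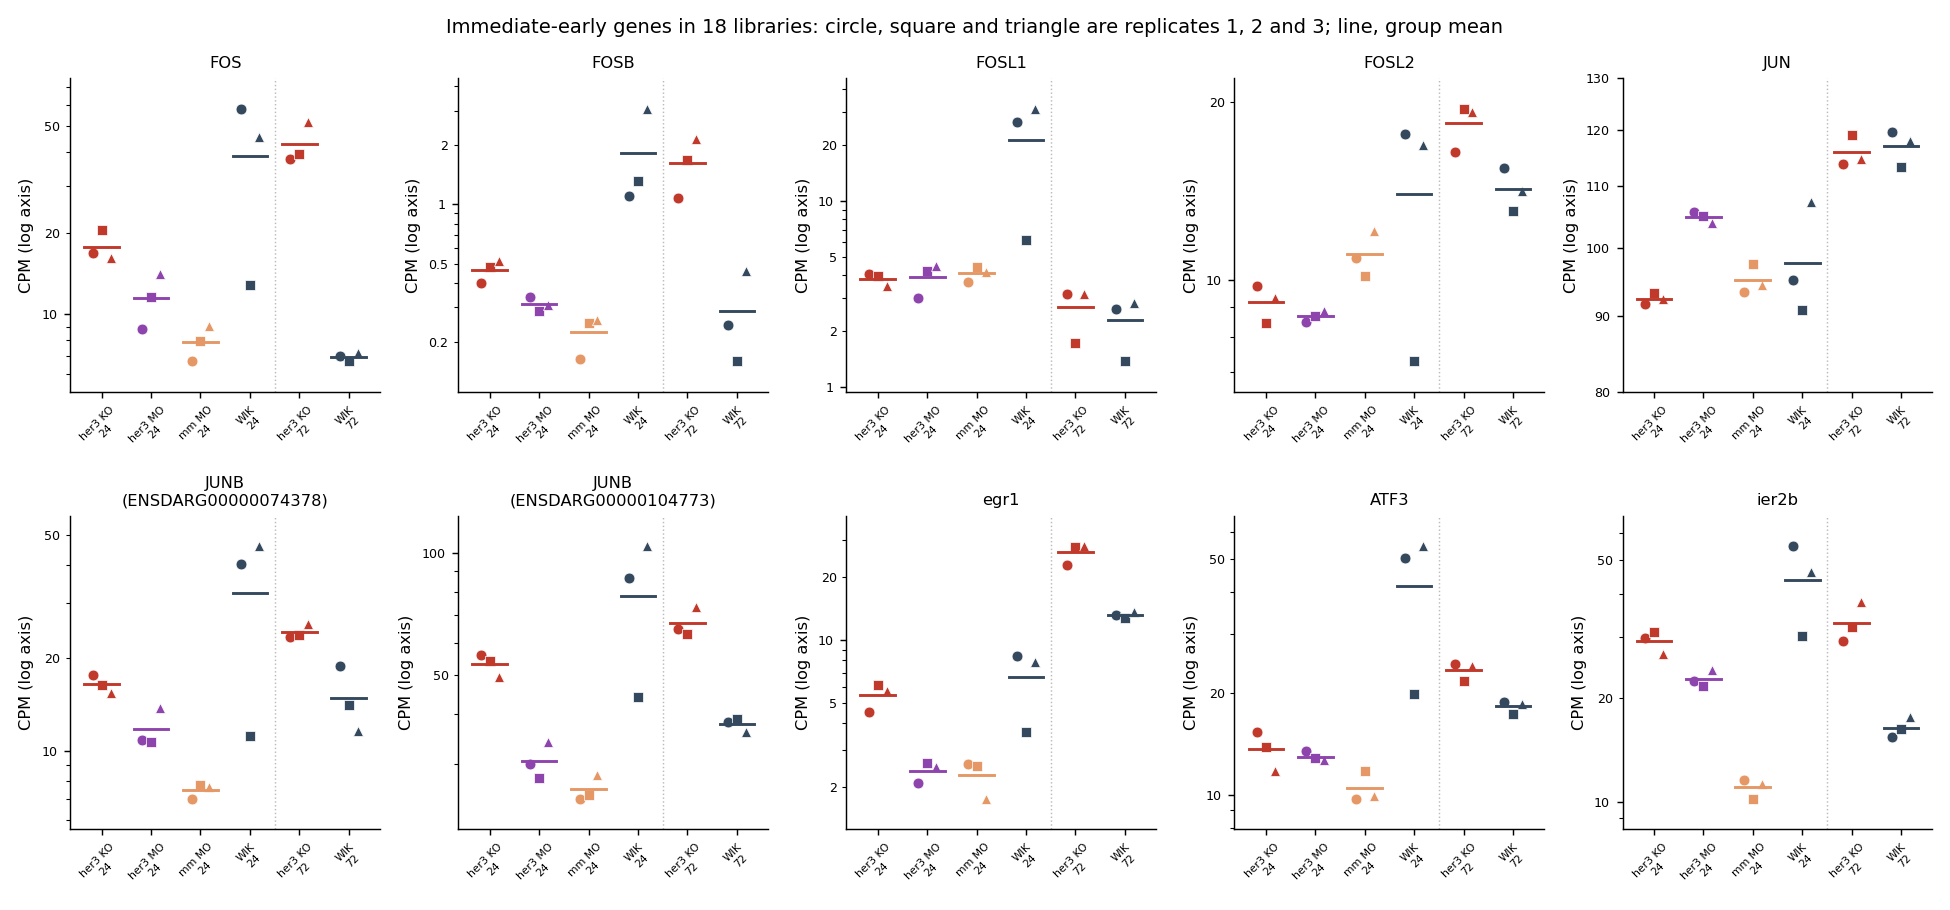
CPM (log axis) of the 10 genes in each of the 18 libraries, by group, with the mean as a line (24 hpf left of the dotted line, 72 hpf right of it). FOS lies at 37.6 to 51.6 CPM in knockout embryos at 72 hpf and at 6.70 to 7.17 CPM in WIK embryos, and the 3 WIK libraries at 24 hpf spread from 12.9 to 58.0 CPM.

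At 24 hpf knockout embryos had lower FOSL1, ATF3 and ier2b than WIK embryos, and no gene of the group was called higher. Of the 9 genes other than FOSB 3 fell (4 of 10 with FOSB), where 12.6% of all tested genes were called, 6.01% higher and 6.63% lower. For 2 of the 9 all knockout libraries lay below all WIK libraries, as for 14.6% of all tested genes. The median log2 difference was -0.53 over the 9 genes and 0.03 over all tested genes. The result rests on which WIK libraries are counted. The SEs come from 1 spread per gene shared by all 6 groups, and WIK at 24 hpf had the widest spread for these genes. They are therefore smaller than the WIK pools' own spread would give. WIK replicates 1 and 3 lay above all 3 knockout libraries for 10 of the 10 genes, while WIK replicate 2 lay above them for 3 genes (FOSB, FOSL1 and ATF3), within their range for 1 and below them for 6. These positions were not counted over all tested genes, so they only describe the 10 genes, FOSB included.

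FOSL1 had 4.05, 3.96 and 3.50 CPM in knockout embryos, against 26.5, 6.18 and 31.3 CPM in WIK embryos. All WIK libraries were higher, and the log2 difference was -2.05 ± 0.42 (adjusted p = 0.0040, limma). ATF3 had 15.4, 13.9 and 11.8 CPM in knockout embryos, against 50.3, 19.9 and 54.6 CPM in WIK embryos. The groups did not overlap, at a log2 difference of -1.45 ± 0.25 (adjusted p = 0.0010, limma). FOSB had 0.400, 0.482 and 0.514 CPM in knockout embryos, against 1.104, 1.32 and 3.07 CPM in WIK embryos. It too was lower in every knockout library, with a log2 difference of -1.18 ± 0.25 (adjusted p = 0.0046, limma). ier2b had 29.8, 31.0 and 26.8 CPM in knockout embryos, against 54.8, 30.2 and 46.2 CPM in WIK embryos. WIK replicate 2 lay within the knockout range, and the call at -0.53 ± 0.16 (adjusted p = 0.037, limma) was lost in 8 of 27 alternatives, with adjusted p from 5.0e-04 to 0.22 over all of them. Leaving out WIK replicate 1, WIK replicate 3 or any 1 knockout library was enough to lose it.

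The other 6 genes did not pass, with adjusted p from 0.14 to 0.61. FOS had 16.8, 20.5 and 16.2 CPM in knockout embryos, between the 12.9 CPM of WIK replicate 2 and the 58.0 and 45.6 CPM of replicates 1 and 3. JUNB (ENSDARG00000104773) had 55.8, 53.9 and 49.3 CPM in knockout embryos, again between the 44.0 CPM of WIK replicate 2 and the 86.7 and 104 CPM of the others. JUNB (ENSDARG00000074378) had 17.6, 16.3 and 15.5 CPM in knockout embryos, against 40.3, 11.1 and 45.9 CPM in WIK embryos. For all 3 genes the groups overlapped only through WIK replicate 2. FOSL2 had 9.75, 8.46 and 9.34 CPM in knockout embryos, against 17.7, 7.29 and 16.9 CPM in WIK embryos. egr1 had 4.55, 6.10 and 5.74 CPM in knockout embryos, against 8.41, 3.64 and 7.88 CPM in WIK embryos. JUN had 91.6, 93.2 and 92.3 CPM in knockout embryos, against 95.1, 90.7 and 107 CPM in WIK embryos. FOSL2, egr1 and JUN overlapped in the same way, with WIK replicate 2 as the lowest of all 6 libraries.

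Without WIK replicate 2, 9 of the 10 genes were called lower in knockout embryos, all but JUN and with FOSB among them, where 12.46% of all tested genes were called. FOS was then at a log2 difference of -1.51 ± 0.19 (adjusted p = 9.4e-05, limma) in place of -0.86 ± 0.37 (adjusted p = 0.14), JUNB (ENSDARG00000074378) at -1.36 ± 0.16 in place of -0.73 ± 0.35, and FOSL2 at -0.88 ± 0.11 in place of -0.48 ± 0.22. Without WIK replicate 1 the value for FOS was -0.45 and for FOSL1 -1.75, and without WIK replicate 3 they were -0.62 and -1.63. When only these 2 groups were fitted with limma, 0 of the 10 genes were called and 4 had an unadjusted p under 0.05, with 5.28% of all tested genes called. On all libraries limma with voom weights called 4, FOSB among them, with 11.0% of all tested genes called. Without the 4 libraries that stood apart in earlier work on these data, 2 were called, ATF3 and FOSB, with 18.9% of all tested genes called. The FOSB call supports nothing, as above. The neutrophil list stood at 14.2, 15.8 and 18.2 CPM in knockout embryos, against 41.3, 17.1 and 48.5 CPM in WIK embryos, with 1 of 4 genes lower. Of the other markers 1 macrophage gene was higher and 2 lower of 10 tested, 1 of 5 leukocyte genes and 1 of 8 neural genes were lower, 2 of 11 skin genes were higher, and the muscle, erythroid, notochord and endothelium lists had 0 called (limma). By summed levels, knockout embryos lay above WIK embryos for notochord (581.9 to 612.5 against 486.4 to 504.4 CPM), endothelium (131.2 to 135 against 110.2 to 117 CPM) and skin (16630 to 17100 against 11880 to 15740 CPM). They lay below for the neural list (1348 to 1466 against 1543 to 1818 CPM), and the remaining lists overlapped. The part of these cells in the result was not tested.

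**Figure D3:**
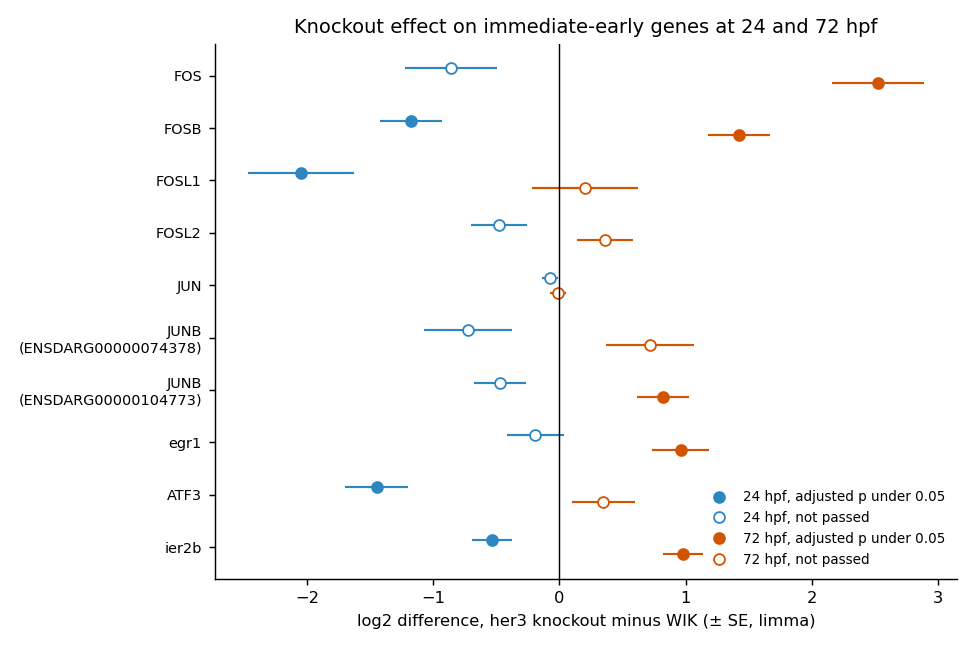
Log2 difference of knockout from WIK embryos (± SE, limma) for the 10 genes at 24 hpf (blue) and 72 hpf (orange), with filled points for an adjusted p under 0.05. All 10 points at 24 hpf lie at or below -0.08, and 9 of the 10 at 72 hpf lie above 0, with FOS at 2.52.

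The difference between the knockout effects at the 2 ages was tested directly, as the effect at 72 hpf minus the effect at 24 hpf. It was above 0 for FOS (3.38 ± 0.52, adjusted p = 0.0012, limma), FOSB (2.60 ± 0.35, adjusted p = 3.8e-04), FOSL1 (2.25 ± 0.59, adjusted p = 0.041), ATF3 (1.80 ± 0.35, adjusted p = 0.0079), ier2b (1.51 ± 0.23, adjusted p = 9.3e-04) and JUNB (ENSDARG00000104773) (1.29 ± 0.29, adjusted p = 0.017). This was 5 of the 9 genes other than FOSB (6 of 10 with it), against 4.64% of all tested genes called, 2.50% above 0 and 2.15% below. egr1, at 1.15 ± 0.32, narrowly missed the threshold (adjusted p = 0.051). JUN showed 0.06 ± 0.09 (adjusted p = 0.70). The FOSL1 call was lost in 17 of 27 alternatives, with adjusted p from 1.3e-04 to 0.19. The 24 hpf effect inside this contrast carries the split of the WIK libraries, and without the 4 libraries that stood apart 3 genes were called in place of 6 (FOSB in both counts), while the share of all tested genes called was 10.7%.

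In WIK embryos 6 of the 9 genes other than FOSB were lower at 72 than at 24 hpf (7 of 10 with it) and 2, egr1 and JUN, were higher, where 74.5% of all tested genes were called, 38.6% higher and 36.0% lower. FOS averaged 6.96 ± 0.242 CPM at 72 hpf and 38.8 ± 23.3 CPM at 24 hpf in WIK embryos (SD, n = 3 each), a log2 difference of -2.15 ± 0.37 (adjusted p = 5.2e-05, limma). FOSL1 averaged 2.29 ± 0.792 CPM at 72 hpf and 21.3 ± 13.3 CPM at 24 hpf, a log2 difference of -2.73 ± 0.42 (adjusted p = 1.8e-05, limma). The large SDs at 24 hpf come with the split described above. The SEs rest on the spread shared by all 6 groups and are smaller than the WIK 24 hpf libraries alone would give. FOS had a within-group standard deviation of 1.14 in WIK at 24 hpf and 0.05 in WIK at 72 hpf (log2 scale). Its adjusted p was up to 0.0072 over 27 alternatives (limma). JUNB (ENSDARG00000074378), also counted as lower, overlapped between the ages, at a log2 difference of -0.90 ± 0.35 (adjusted p = 0.028, limma). That call was lost in 8 of 27 alternatives, among them without WIK 24 hpf replicate 1 or replicate 3, with adjusted p from 4.3e-07 to 0.26. egr1 went the other way, with 13.1 ± 0.435 CPM at 72 hpf and 6.64 ± 2.61 CPM at 24 hpf, a log2 difference of 1.01 ± 0.23 (adjusted p = 7.1e-04, limma).

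In knockout embryos 5 of the 9 genes other than FOSB were higher at 72 than at 24 hpf (6 of 10 with it) and 0 lower, where 74.9% of all tested genes were called, 37.1% higher and 37.8% lower. They were FOS, FOSL2, JUN, egr1 and ATF3. egr1 averaged 26.2 ± 2.94 CPM at 72 hpf and 5.46 ± 0.812 CPM at 24 hpf, a log2 difference of 2.16 ± 0.23 (adjusted p = 1.9e-07, limma). FOS averaged 42.8 ± 7.66 CPM at 72 hpf and 17.8 ± 2.33 CPM at 24 hpf, a log2 difference of 1.23 ± 0.37 (adjusted p = 0.0060, limma). FOSL1 averaged 2.68 ± 0.833 CPM at 72 hpf and 3.84 ± 0.294 CPM at 24 hpf and did not pass (adjusted p = 0.31, limma). With so large a share of all genes called between ages, a call alone does not set these genes apart. By direction, 6 of the 9 were lower in WIK embryos (36.0% of all tested genes) and 0 in knockout embryos (37.8%). Higher were 2 of the 9 in WIK embryos (38.6%) and 5 in knockout embryos (37.1%). These shares were not tested against each other.

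Embryos injected with either morpholino had less of most of these transcripts at 24 hpf than uninjected WIK embryos. With the her3 morpholino 7 of the 9 genes other than FOSB were lower (8 of 10 with it), where 14.5% of all tested genes were called, 6.71% higher and 7.74% lower. That share was 4.93% without her3 morpholino replicate 2 and 25.3% without WIK replicate 3. With the mismatch morpholino 7 of the 9 were lower (8 of 10 with FOSB), where 10.5% of all tested genes were called, 4.99% higher and 5.48% lower. All 3 injected libraries lay below all WIK libraries for 5 of the 9 genes with the her3 morpholino and for 7 with the mismatch morpholino, as 14.6% and 11.4% of all tested genes did. In both comparisons FOSL2 and JUN were the genes that did not pass. The median log2 difference over the 9 genes was -1.24 with the her3 morpholino and -1.82 with the mismatch morpholino, and over all tested genes 0.01 and 0.03. The 2 comparisons share the WIK libraries, so their values are given side by side and not as separate evidence.

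Markers of several cell types moved in the same comparisons. With the her3 morpholino 4 of 10 tested macrophage genes and 2 of 5 leukocyte genes were higher than in WIK embryos, and 4 of 8 muscle genes and 2 of 5 notochord genes were lower. With the mismatch morpholino 4 of 10 macrophage genes were higher and 1 lower, 2 of 5 leukocyte genes were higher, 1 of 8 muscle genes was lower and 1 of 5 notochord genes was higher. Of the 4 neutrophil genes 1 was higher and 1 lower with the her3 morpholino, and 2 were higher and 1 lower with the mismatch morpholino. The leukocyte list summed to 64.9, 84.7 and 77.1 CPM with the her3 morpholino and 62.7, 76.1 and 82.3 CPM with the mismatch morpholino, against 42.0, 48.2 and 57.4 CPM in WIK embryos, with no overlap. The macrophage list summed to 102, 116 and 127 CPM with the her3 morpholino and 104, 101 and 154 CPM with the mismatch morpholino, against 104, 64.1 and 72.8 CPM in WIK embryos, and both injected groups overlapped with WIK. The muscle list summed to 6903, 4427 and 3865 CPM with the her3 morpholino and 5959, 5960 and 4588 CPM with the mismatch morpholino, against 7078, 7299 and 6667 CPM in WIK embryos. PER2 was higher than in WIK embryos with the mismatch morpholino (log2 difference 0.66 ± 0.13, adjusted p = 0.0046, limma). It did not pass with the her3 morpholino (-0.16 ± 0.13, adjusted p = 0.42). lonrf1 was lower with the her3 morpholino (-0.98 ± 0.08, adjusted p = 1.9e-06) and with the mismatch morpholino (-0.34 ± 0.08, adjusted p = 0.011). The part of PER2 and lonrf1 was not tested. Skin genes were lower in 1 of 11 with the her3 morpholino and in 2 of 11 with the mismatch morpholino. The part of these cells in the result was not tested.

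ier2b had 22.3, 21.6 and 24.1 CPM with the her3 morpholino and 11.5, 10.2 and 11.3 CPM with the mismatch morpholino, against 54.8, 30.2 and 46.2 CPM in WIK embryos. The 3 groups did not overlap, with log2 differences from WIK of -0.89 ± 0.16 (adjusted p = 0.0027, limma) for the her3 morpholino and -1.90 ± 0.16 (adjusted p = 1.6e-06, limma) for the mismatch morpholino. The call for the mismatch morpholino also held when these 2 groups alone were fitted (adjusted p = 0.021, range 6.1e-08 to 0.021 over its alternatives). FOS had 8.86, 11.6 and 14.1 CPM with the her3 morpholino and 6.73, 7.96 and 9.07 CPM with the mismatch morpholino, against 58.0, 12.9 and 45.6 CPM in WIK embryos. WIK replicate 2 lay within the her3 morpholino range and above the mismatch morpholino range. The log2 difference of FOS from WIK was -1.48 ± 0.37 with the her3 morpholino (adjusted p = 0.016, limma). That call was lost in 4 of 27 alternatives, among them without WIK replicate 1, with adjusted p from 8.7e-06 to 0.24. With the mismatch morpholino it was -1.98 ± 0.37 (adjusted p = 0.0026, limma), lost in 1 of 27. FOSL1 had 3.01, 4.23 and 4.50 CPM with the her3 morpholino and 3.67, 4.42 and 4.17 CPM with the mismatch morpholino, against 26.5, 6.18 and 31.3 CPM in WIK embryos. Both injected groups lay below all WIK libraries. ATF3 had 13.5, 12.8 and 12.7 CPM with the her3 morpholino and 9.74, 11.8 and 9.90 CPM with the mismatch morpholino, against 50.3, 19.9 and 54.6 CPM in WIK embryos. Again neither injected group overlapped with WIK.

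egr1 had 2.08, 2.58 and 2.47 CPM with the her3 morpholino and 2.57, 2.50 and 1.75 CPM with the mismatch morpholino, against 8.41, 3.64 and 7.88 CPM in WIK embryos. JUNB (ENSDARG00000104773) had 30.1, 27.8 and 34.0 CPM with the her3 morpholino and 24.7, 25.2 and 28.3 CPM with the mismatch morpholino, against 86.7, 44.0 and 104 CPM in WIK embryos. For both genes every injected library was below every WIK library. JUNB (ENSDARG00000074378) had 10.9, 10.7 and 13.8 CPM with the her3 morpholino and 7.01, 7.79 and 7.63 CPM with the mismatch morpholino, against 40.3, 11.1 and 45.9 CPM in WIK embryos. WIK replicate 2 fell within the her3 morpholino range here, and that call was lost in 8 of 27 alternatives (adjusted p from 8.7e-06 to 0.30). FOSB had 0.339, 0.287 and 0.309 CPM with the her3 morpholino and 0.163, 0.250 and 0.258 CPM with the mismatch morpholino, against 1.104, 1.32 and 3.07 CPM in WIK embryos. FOSL2 had 8.48, 8.70 and 8.87 CPM with the her3 morpholino and 10.9, 10.2 and 12.1 CPM with the mismatch morpholino, against 17.7, 7.29 and 16.9 CPM in WIK embryos. JUN had 106, 105 and 104 CPM with the her3 morpholino and 93.4, 97.4 and 94.3 CPM with the mismatch morpholino, against 95.1, 90.7 and 107 CPM in WIK embryos. FOSL2 and JUN overlapped with WIK in both comparisons.

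When each pair of groups was fitted alone with limma, 0 of the 10 genes were called for the her3 morpholino, with 8 at an unadjusted p under 0.05, and 1 for the mismatch morpholino. The shares of all tested genes called fell likewise, to 0.418% for the her3 morpholino and 1.095% for the mismatch morpholino. On all libraries limma with voom weights called 7 for the her3 morpholino (12.3% of all tested genes) and 8 for the mismatch morpholino (9.64%), and without the 4 libraries that stood apart 5 were called for the her3 morpholino (20.2%). FOSB was among the genes called with voom weights and without the 4 libraries, but not when each pair of groups was fitted alone. Without WIK replicate 2, FOSL2 joined the called genes in both comparisons, at -0.96 ± 0.11 for the her3 morpholino (adjusted p = 1.7e-04, limma) and -0.63 ± 0.11 for the mismatch morpholino (adjusted p = 0.0032, limma).

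**Figure D4:**
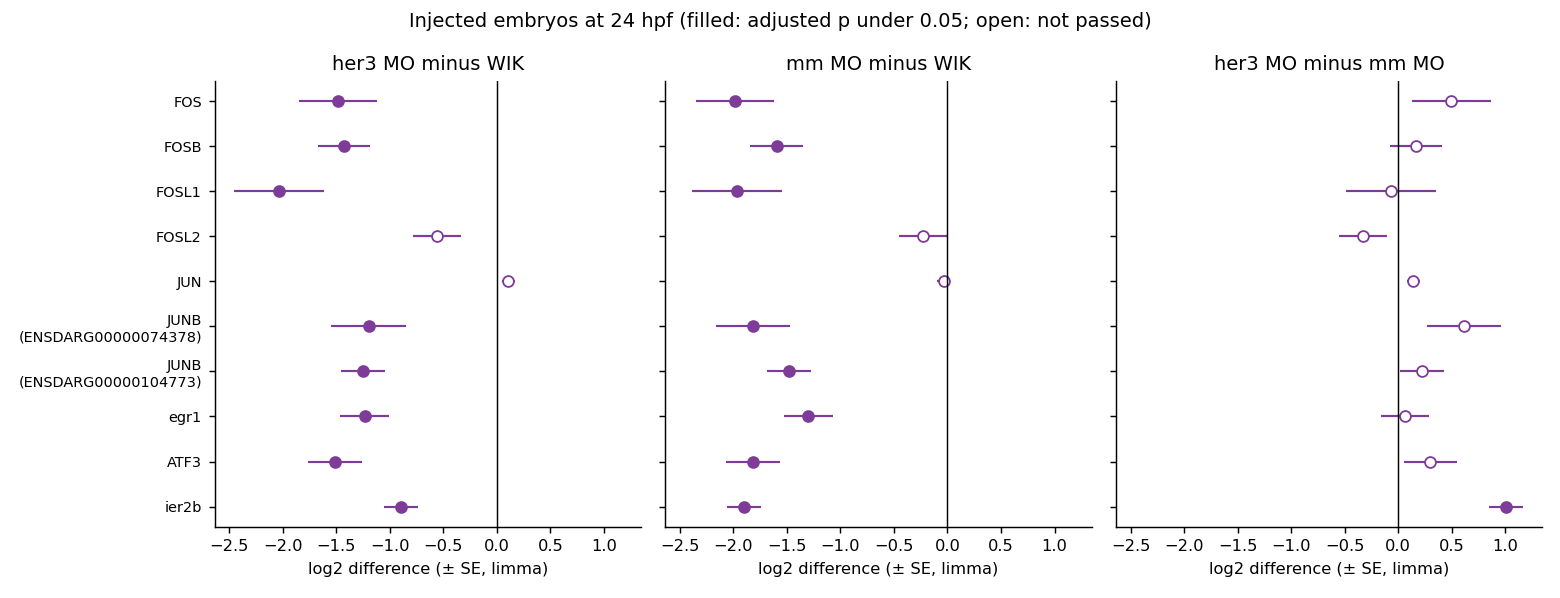
Log2 difference (± SE, limma) of the 10 genes at 24 hpf for the her3 morpholino against WIK, the mismatch morpholino against WIK and the her3 morpholino against the mismatch morpholino, with filled points for an adjusted p under 0.05. Filled points number 8, 8 and 1 (7, 7 and 1 without FOSB, whose calls support nothing), where 14.5, 10.5 and 3.35% of all tested genes were called. In the last panel the filled point is ier2b at 1.01.

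Between the 2 injected groups ier2b was called, and it was higher with the her3 morpholino: 22.7 ± 1.29 CPM, against 11.0 ± 0.709 CPM with the mismatch morpholino (SD, n = 3 each). The log2 difference was 1.01 ± 0.16 (adjusted p = 0.0016, limma), and it kept its call in all 27 alternatives, with adjusted p from 5.2e-05 to 0.012. This was 1 of the 10 genes, where 3.35% of all tested genes were called, 1.45% higher and 1.90% lower. JUNB (ENSDARG00000074378), ATF3, JUN and FOSB also had all 3 her3 morpholino libraries above the 3 mismatch morpholino libraries, which 10.2% of all tested genes showed, but did not pass (adjusted p = 0.44, 0.64, 0.28 and 0.81, limma). FOSL2 lay below in all 3, as did 10.7% of all tested genes, and did not pass (-0.33 ± 0.22, adjusted p = 0.54). FOS had a log2 difference of 0.50 ± 0.37 and overlapping groups (adjusted p = 0.58). Outside the 10 genes, PER2 (-0.82 ± 0.13, adjusted p = 0.0019, limma) and lonrf1 (-0.64 ± 0.08, adjusted p = 1.5e-04) were lower with the her3 morpholino. Without WIK replicate 2, which takes no part in this comparison but in its shared spread, JUNB (ENSDARG00000074378) was also called, at 0.62 ± 0.14 (adjusted p = 0.031, limma, range 0.031 to 0.69 over its alternatives).

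WIK at 24 hpf or knockout at 72 hpf had the highest mean for 9 of the 10 genes, FOSB among them. FOSB reached 1 CPM in these groups alone, so its highest mean had to lie there and supports nothing. The exception was JUN, highest in WIK at 72 hpf (117 ± 3.26 CPM) and overlapping with knockout at 72 hpf (116 ± 2.87 CPM). At the low end, the mismatch morpholino group had the lowest mean for FOSB, both JUNB genes, egr1, ATF3 and ier2b. Its libraries overlapped with those of the next lowest group for FOSB, JUNB (ENSDARG00000104773) and egr1. They did not for JUNB (ENSDARG00000074378), ATF3 and ier2b. How many of all tested genes had their highest or lowest mean in these groups was not counted. For ier2b knockout at 24 hpf (29.2 ± 2.19 CPM), her3 morpholino (22.7 ± 1.29 CPM), WIK at 72 hpf (16.4 ± 1.12 CPM) and mismatch morpholino (11.0 ± 0.709 CPM) formed 4 levels whose libraries did not overlap between neighbours. For FOS, the mismatch morpholino (7.92 ± 1.17 CPM) and WIK at 72 hpf (6.96 ± 0.242 CPM) overlapped.

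Other genes of the immediate-early programme were counted in 6 lists. At 72 hpf the list of Egr, Nr4a, Klf and other immediate-early transcription factors had 19 of 34 tested genes higher in knockout embryos and 0 lower (10.8% of all genes called), with a median log2 difference of 0.40 against -0.01 over all tested genes. Its lowest adjusted p was that of KLF11 (ENSDARG00000030844), a Krüppel-like repressor, at 65.3 ± 0.972 CPM in knockout and 22.7 ± 0.887 CPM in WIK embryos (log2 difference 1.50 ± 0.10, adjusted p = 4.2e-08, limma). nfil3-6, of a bZIP repressor family tied to the clock, followed at 1.40 ± 0.13 (adjusted p = 1.8e-06). The feedback and signalling list had 14 of 41 genes higher and 0 lower. DUSP1, a phosphatase that shuts off MAP kinases, averaged 108 ± 4.36 CPM in knockout and 52.2 ± 1.16 CPM in WIK embryos, a log2 difference of 1.04 ± 0.07 (adjusted p = 5.6e-08, limma). BTG2, an antiproliferative gene, was at 0.97 ± 0.08 (adjusted p = 7.2e-07). With single libraries left out the 2 counts higher ranged from 15 to 21 and from 11 to 17.

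The other AP-1 bZIP genes, those of Batf, Jdp2, Maf and further Jun and Fos copies, had 3 of 17 tested genes higher in knockout embryos at 72 hpf and 0 lower. They were JDP2 (ENSDARG00000020133), a repressor that pairs with Jun proteins (1.50 ± 0.25, adjusted p = 7.6e-04, limma), fosaa, the second fos copy (1.24 ± 0.26, adjusted p = 0.0047), and JUND, a steadily expressed Jun gene (0.61 ± 0.14, adjusted p = 0.0073). The list's median log2 difference was -0.02. The kinases and factors that act upstream (SRF, ternary complex factors, CREB and MAP kinase genes) had 3 of 33 genes higher and 2 lower, and their median was -0.03. Without knockout 72 hpf replicate 2 the list had 0 higher and 0 lower, and with any single library left out it had 0 to 3 in each direction. map2k2b, a MAP kinase kinase gene (0.43 ± 0.10, adjusted p = 0.011), and crema, a CREB-family gene (1.11 ± 0.28, adjusted p = 0.018), were higher, and atf1 (-0.58 ± 0.15, adjusted p = 0.017) was lower. The list of AP-1 targets and injury genes had 6 of 32 genes higher and 2 lower. CCN1, a secreted matricellular protein, was higher (0.91 ± 0.07, adjusted p = 5.0e-07), as was ODC1, of polyamine synthesis (0.61 ± 0.08, adjusted p = 4.6e-05), and the chemokines cxcl8a (-1.03 ± 0.22, adjusted p = 0.0055) and cxcl18b (-1.32 ± 0.34, adjusted p = 0.019) were lower. The heat shock and stress list had 2 of 33 genes higher and 5 lower, among them the collagen chaperone SERPINH1 (ENSDARG00000019949) at -1.42 ± 0.13 (adjusted p = 2.7e-06) and HSPH1 at -0.59 ± 0.10 (adjusted p = 9.1e-04). Those higher were HSF2, a heat shock factor (0.60 ± 0.08, adjusted p = 7.1e-05), and HSPA8 (ENSDARG00000037403) (1.84 ± 0.27, adjusted p = 2.2e-04). Knockout libraries, in which HSPA8 is high, sufficed for it to pass the filter on low values, as the next paragraph sets out. The HSPA8 call therefore supports nothing here either, and the count of 2 higher includes it.

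At 24 hpf the same lists read otherwise in knockout against WIK embryos, with 12.6% of all genes called. The other AP-1 bZIP genes had 0 higher and 3 lower of 17, with JUND (-0.69 ± 0.14, adjusted p = 0.0028, limma), fosaa (-1.16 ± 0.26, adjusted p = 0.0069) and JDP2 (ENSDARG00000020133) (-0.79 ± 0.25, adjusted p = 0.049), and 0 higher and 0 lower of 14 when the 2 groups alone were fitted. The Egr, Nr4a and Klf list had 0 higher and 5 lower of 34, and the feedback and signalling list 0 higher and 7 lower of 41. NFIL3 (-0.49 ± 0.11, adjusted p = 0.0054) and CEBPD (-0.70 ± 0.16, adjusted p = 0.0069) led the first of these by adjusted p, and trib1 (-0.90 ± 0.11, adjusted p = 3.5e-05) and TRIB3 (-0.53 ± 0.09, adjusted p = 0.0012) the other. The counts of these 2 lists became 10 and 17 lower without WIK replicate 2, and 1 and 3 lower when the 2 groups alone were fitted. The AP-1 target and injury list had 2 higher and 5 lower of 32, with 10 lower without WIK replicate 2, 2 lower without knockout replicate 1, WIK replicate 1 or WIK replicate 3, and 3 lower when the 2 groups alone were fitted. In it the prostaglandin synthase gene PTGS2 (ENSDARG00000010276) was at 4.53 ± 0.856 CPM in knockout and 39.3 ± 23.3 CPM in WIK embryos (-2.77 ± 0.34, adjusted p = 4.3e-05), and MMP14 (ENSDARG00000008388), a membrane metalloproteinase, was higher in knockout embryos (1.79 ± 0.13, adjusted p = 1.7e-07). The upstream list and the heat shock list each had 2 of 33 higher and 0 lower, and without WIK replicate 3 the upstream list had 5 higher. The heat shock list included HSPA8 (ENSDARG00000037403), at 2.40 ± 0.391 CPM in knockout and 0.316 ± 0.128 CPM in WIK embryos (1.83 ± 0.27, adjusted p = 2.4e-04). Its WIK level is near the 0.153 to 0.255 CPM that 3 reads equal in those libraries. The knockout libraries, where it is high, sufficed for it to pass the filter of 1 CPM, so its call supports nothing.

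**Figure D5:**
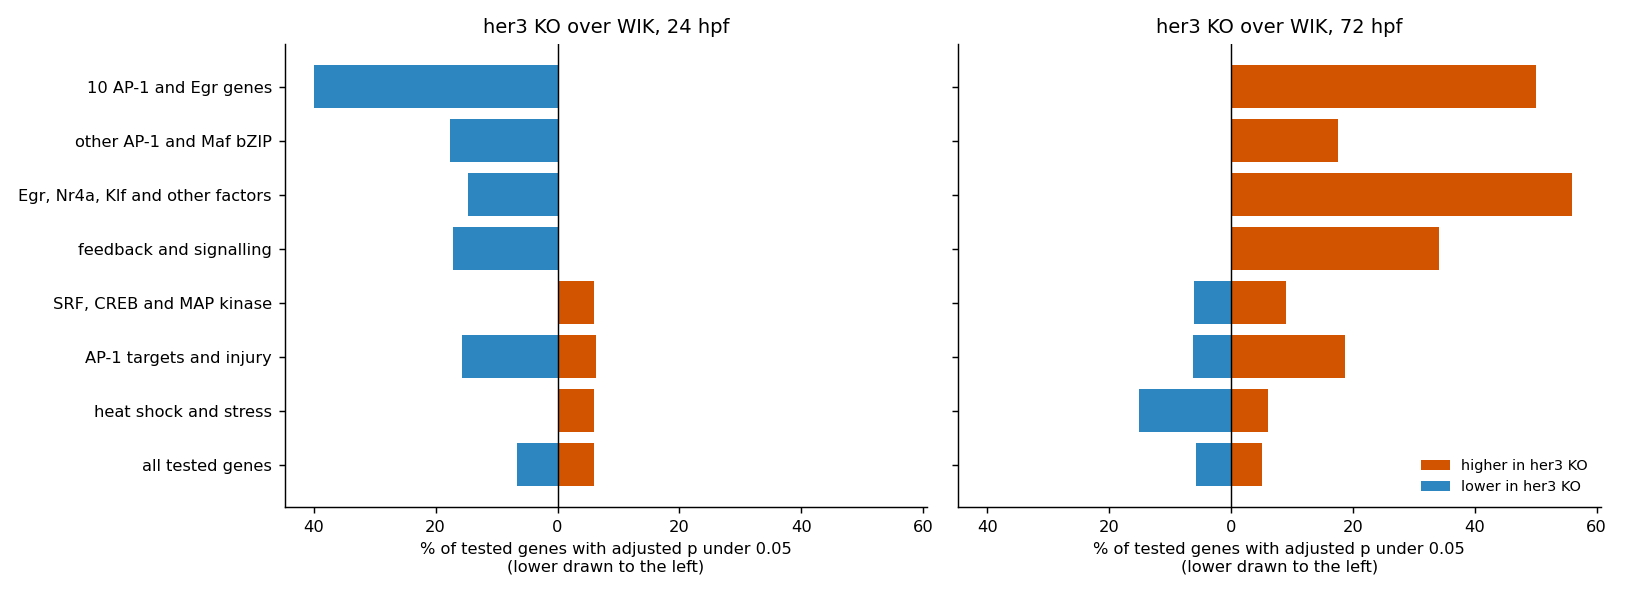
Share of tested genes with an adjusted p under 0.05 in knockout against WIK embryos at 24 hpf (left panel) and 72 hpf (right panel), with genes higher in the knockout in orange to the right and genes lower in blue to the left. At 72 hpf 19 of 34 Egr, Nr4a, Klf and other factors and 14 of 41 feedback and signalling genes are higher, and the bottom bars give all 20738 tested genes.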

How the data were processed

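RNA was measured by poly(A)-selected, directional sequencing, per the labels' protocols. The authors deposited 1 table of CPM values for 25535 genes in 18 libraries, scaled to an effective library size. Per the submitters' processing notes, the build was danRer11 and the tools HISAT2 2.2.1, SAMtools 1.10, edgeR 3.34.0 and featureCounts 2.0.2. Not given in the sources used here are the settings, strand use and multi-mapping rules. All values (100%) came out as whole reads within 0.01 reads, and a count of 3 reads equals 0.122 to 0.255 CPM.

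Values were taken to log2(CPM + 0.5), which understates changes of low genes, and a gene was tested if it reached 1 CPM in 3 or more libraries (20738 genes). limma 3.58.1 (R 4.3.3) was fitted over all 18 libraries with 1 coefficient per group and with trended, robust variance moderation. p-values were adjusted by Benjamini-Hochberg over all tested genes at a threshold of 0.05. The planned edgeR test on recovered reads was not run, and limma with voom weights on those reads was added in its place after seeing the data. The fit was tested on simulated data. Tables and figures used Python 3.11.15, numpy 2.4.6, pandas 2.3.3 and matplotlib 3.10.9.

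All 10 genes are named whatever their values. Likeness was computed for named genes with a mean of at least 2 CPM, and the 8 nearest are named. From each other list the 2 genes with the lowest adjusted p in a direction may be named. JUND at 72 hpf and JDP2 at 24 hpf are outside that rule and were chosen after their values were seen. The genes, lists, markers and tests were chosen with earlier results of these data known. Of 208 list symbols 197 were matched to identifiers through a table of gene names. Each library is a pool of embryos, and p-values measure the spread between pools.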

Additional observations from a re-analysis of the deposited data

Results flagged for a closer look

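The knockout effect (knockout minus WIK, log2) differed between 72 and 24 hpf by a direct test for 6 genes: by 3.38 for FOS, 2.60 for FOSB, 2.25 for FOSL1, 1.80 for ATF3, 1.51 for ier2b and 1.29 for JUNB (ENSDARG00000104773). FOSB passed the filter on low values only through the 2 groups that raise this difference, so its value supports nothing. Without FOSB this was 5 of the 9 other genes. Over all tested genes 4.64% were called, 2.50% above 0 and 2.15% below. For each gene the difference is the effect at 72 hpf minus the effect at 24 hpf, and the test was the contrast of the 4 groups in limma. The WIK libraries at 24 hpf enter this contrast with the split of replicate 2 from replicates 1 and 3. Without WIK 24 hpf replicate 2 the value for FOS was 4.03 and without replicate 1 it was 2.97. Of 27 alternatives each, the FOSL1 call was lost in 17, those of ATF3 and JUNB (ENSDARG00000104773) in 1, and those of FOS and ier2b in 0. At 72 hpf itself FOSL1 and ATF3 did not pass (adjusted p = 0.85 and 0.47, limma).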

How the results depend on the processing

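Of 47 called values of the 10 genes, FOSB included, checked under 27 alternatives each (1269 values), 1198 kept direction and call, 71 kept direction and lost the call and 0 reversed. Many alternatives could not reverse a direction, because they leave the log2 difference as it is and change only its SE or adjustment. These are the fits without a library of a group not compared, with the replicate block, without the filter or on the compared groups alone. The number of the 10 genes called, FOSB included, moved by over 1.5 times as follows. When the compared groups alone were fitted it was 0 in place of 4 for knockout against WIK at 24 hpf, 0 in place of 8 for the her3 morpholino against WIK, 1 in place of 8 for the mismatch morpholino against WIK and 8 in place of 5 for knockout against WIK at 72 hpf. Without WIK 24 hpf replicate 2 it was 9 in place of 4 for knockout against WIK at 24 hpf, 8 in place of 5 at 72 hpf and 2 in place of 1 for the her3 against the mismatch morpholino. Without the 4 libraries that stood apart in earlier work on these data (WIK 24 hpf replicate 1, her3 morpholino replicate 1, mismatch morpholino replicate 3, knockout 72 hpf replicate 3) the counts were 2 (knockout against WIK, 24 hpf), 5 (her3 morpholino against WIK) and, for the difference of the 2 knockout effects, 3 in place of 6. With single libraries left out the counts ranged from 3 to 9 (knockout against WIK, 24 hpf), 6 to 9 (her3 morpholino against WIK), 8 to 9 (mismatch morpholino against WIK), 1 to 2 (her3 against mismatch morpholino), 4 to 8 (knockout against WIK, 72 hpf), 8 to 10 (WIK, 72 over 24 hpf), 6 to 8 (knockout, 72 over 24 hpf) and 5 to 9 (difference of effects). Between ages, 70.38 to 75.62% (WIK) and 70.86 to 79.19% (knockout) of all tested genes were called with single libraries left out. The counts between ages therefore do not set the 10 genes apart. Where 1 library of an arm is left out the other arms supply the spread. The replicate numbers do not pair the libraries: deviations of same-numbered libraries correlated at -0.58 to 0.32 across genes. With the replicate block the 8 counts, FOSB included, were 4, 8, 8, 1, 5, 9, 6 and 6, the same as without it. The shares of all tested genes called with the block were, in that order, 11.62, 13.6, 9.707, 2.946, 10.02, 74.03, 74.45 and 4.031%. Rescaling every library to the same sum moved the median of all genes by 0.17 and 0.12 for the her3 and mismatch morpholino against WIK, and by 0.16 and 0.13 for WIK and knockout between ages. The planned edgeR test on recovered reads was not run. Genes near the low end, FOSB above all with 3 to 60 reads a library, have the widest counting error, and depth limits what can be read from them. Over all tested genes, knockout against WIK gave 2620 calls at 24 hpf (944 when these 2 groups alone were fitted, 3871 without the 4 libraries, and 1503 to 3388 with single libraries left out) and 2245 at 72 hpf (likewise 3455, 4594, and 1362 to 3113). The her3 morpholino against WIK gave 2997 (75, 4147, and 1021 to 5248), the mismatch morpholino against WIK 2171 (196, 3376, and 1023 to 2936), the her3 against the mismatch morpholino 694 (181, 2663, and 326 to 1243) and the difference of effects 963 (938, 2201, and 549 to 1222). The causes of these changes were not tested.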
